A study of Mus musculus with 4 samples.

Results

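Gdf15, Stc1, Stc2, Fgf21 and Angptl4 encode secreted proteins that cells make more of under stress, and these 5 genes were taken by symbol from a table of 22266 genes. All 5 symbols were found, each with a single row. They were chosen by their name and kind with the TPM of day 2 and day 0 in these same libraries in view, so their difference between the groups is given below as a description, with no test. RNA was sequenced after poly(A) selection from 4 libraries of female mouse embryonic stem cells (PGK12.1, line mESC CBX2fl/fl-HaloTag), kept on gelatin in serum with leukemia inhibitory factor. The OHT group (n = 2, genotype label Knockout) received 1.0 µM 4-hydroxytamoxifen (4-OHT) for 48 hours and was taken at day 2. The EtOH group (n = 2, genotype label Wildtype) received ethanol and is the day 0 control. Both groups carry floxed, HaloTag-bearing Cbx2, and both are labelled as batch 2. The labels name neither the recombinase nor a clone, and intact Cbx2 was never sampled under 4-OHT. The loss of CBX2, a chromodomain subunit of Polycomb repressive complex 1, therefore cannot be told apart from the drug or from the added days. Whether the replicates are separate cultures is not stated in the labels, so every SD, SE and p-value measures only the spread between these libraries, which may be technical.

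GDF15 is a distant member of the transforming growth factor beta family that signals through the receptor GFRAL and its co-receptor RET in the hindbrain. FGF21 is an endocrine fibroblast growth factor that needs the co-receptor beta-Klotho, STC1 and STC2 are stanniocalcins that inhibit the protease PAPP-A, and ANGPTL4 inhibits lipoprotein lipase. Several stress pathways feed these genes: ATF4, the transcription factor of the integrated stress response, drives Fgf21 and Stc2 and contributes to Gdf15, p53 drives Gdf15, and hypoxia and the lipid-sensing PPAR receptors drive Angptl4.

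The values are the authors' TPM (a length-corrected share of all transcripts in a library, scaled to a sum of 1000000), so levels can be compared between genes, but the sequencing depth cannot be had from them. The RNA is from whole cultures, so fewer cells of a type and less RNA per cell cannot be told apart. Cbx2, the targeted gene, read 0.749 and 1.14 TPM in the OHT libraries, against 2.29 and 2.71 TPM in the EtOH libraries, which is the direction the labels give (log2 difference -0.85, SE 0.19, limma adjusted p = 0.265; TPM also covers exons outside any deleted part). Relative to the EtOH mean, the log2 difference of Cbx2 was -0.998 for OHT replicate 1 and -0.708 for OHT replicate 2. Embryonic stem cell markers were abundant: the 8 markers (Pou5f1, Nanog, Sox2, Zfp42, Esrrb, Dppa5a, Tdgf1 and Fbxo15) summed to 12389 and 11100.2 TPM in the OHT libraries and to 9544 and 9489 TPM in the EtOH libraries. Dppa5a was the largest part, at 7089 and 5623 TPM with OHT against 4733 and 4612 TPM with EtOH. Without overlap, OHT lay above EtOH in 6 of the 8 (75.0%, beside 23.1% over all genes). Sox2 overlapped, Fbxo15 was below, at 304 and 309 against 376 and 382 TPM, and none of the 8 passed the test. Markers of other cell types were read too, at lower sums. The 10 fibroblast and feeder markers summed to 10.6 and 16.6 TPM with OHT against 9.41 and 8.65 TPM with EtOH, the 10 primitive endoderm markers to 37.8 and 55.4 against 38.7 and 43.0 TPM, and the 10 trophoblast markers to 41.9 and 47.9 against 41.3 and 42.6 TPM. In those lists 2 fibroblast, 5 primitive endoderm and 4 trophoblast genes were tested, and none passed. OHT lay above EtOH without overlap in 1, 2 and 2 of them, beside 23.1% over all genes tested. OHT lay below EtOH in 0 of them, beside 19.4% over all genes tested. Single marker genes are named after their values were seen: Thy1 read 7.64 and 10.9 TPM with OHT against 6.41 and 5.43 TPM with EtOH, and Sox17 read 1.62 and 1.40 against 1.01 and 0.657 TPM. Of the markers too low to be tested, which those shares do not cover, Foxa2, Afp and Dcn lay below EtOH without overlap. Pdgfra, Col1a1 and Col1a2 lay above it, and all of these were under 1 TPM in every library. Tfap2c made up most of the trophoblast sum, at 31.4 and 36.6 against 32.4 and 33.5 TPM, while Postn, Ttr, Prl3d1 and Tpbpa, defining markers of more mature cells, were listed at 0 in all 4 libraries. The part of other cells in the results below was not tested.

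Of the 5 genes, 3 have an entry among the RefSeq promoters used here (GRCm38.p6): Gdf15 with 2 start sites, Stc2 and Fgf21. The 250 bases upstream of a start site of each are shown because these are the members with an entry, and motifs of the pathways named above can be looked for in them. They lie at chr8:70632457-70632706 for the outer start of Gdf15, chr11:31370062-31370311 for Stc2 and chr7:45615491-45615740 for Fgf21, all on the minus strand and written 5′ to 3′ with the start site following the last base. Capitals mark matches to the motifs named after them.
Gdf15: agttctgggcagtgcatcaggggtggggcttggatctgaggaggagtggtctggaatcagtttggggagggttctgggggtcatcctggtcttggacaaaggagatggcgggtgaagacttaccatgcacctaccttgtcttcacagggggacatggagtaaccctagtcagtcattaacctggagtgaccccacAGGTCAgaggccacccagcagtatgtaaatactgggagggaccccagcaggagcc
Stc2: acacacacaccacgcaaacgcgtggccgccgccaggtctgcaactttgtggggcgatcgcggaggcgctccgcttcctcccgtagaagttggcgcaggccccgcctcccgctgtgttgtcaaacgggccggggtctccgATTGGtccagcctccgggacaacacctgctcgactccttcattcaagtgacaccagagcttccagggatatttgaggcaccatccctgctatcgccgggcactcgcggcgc
Fgf21: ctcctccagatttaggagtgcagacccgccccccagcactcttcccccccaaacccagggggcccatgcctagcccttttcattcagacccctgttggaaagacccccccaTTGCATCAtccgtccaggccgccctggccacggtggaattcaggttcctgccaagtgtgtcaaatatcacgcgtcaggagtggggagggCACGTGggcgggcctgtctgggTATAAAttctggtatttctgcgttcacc

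Each motif was searched on both strands in these windows and in all 32817 windows of the same length. The C/EBP-ATF composite element (TGATGNAA), to which ATF4 binds with a partner, had 1 match, on the opposite strand of the Fgf21 window (TTGCATCA, beginning 139 bases upstream of the start), and 3.45% of all windows held it. The core of the hypoxia response element (ACGTG) matched in the Fgf21 window on both strands, overlapping as the palindrome whose first base lies 50 bases upstream, and 16.6% of all windows held it. A TATA box (TATAAA; 12.4% of all windows) lay 28 bases upstream in the Fgf21 window, a CCAAT box (CCAAT; 33.8%) 111 bases upstream in the Stc2 window on the opposite strand, and a nuclear receptor half-site (AGGTCA; 14.0%) 55 bases upstream in the Gdf15 window. The AP-1 motif (TGANTCA; 6.75%), the cyclic AMP response element (TGACGTCA; 1.55%) and the p53 half-site (7.12%) had no match in any of the 3 windows. The last bases of the Stc2 window, from 31370062 to 31370074, lie within the annotated gene. The window of the inner Gdf15 start overlaps an annotated exon and is not shown. It held the ACGTG core on both strands from 83 bases upstream and a CCAAT box 6 bases upstream, and no match to the other motifs. These matches are runs of letters within short windows and are not binding sites that were measured.

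Gdf15, the stress cytokine, was the most abundant of the 5 genes after 4-OHT. It read 20.7 and 23.3 TPM in the OHT libraries, against 8.17 and 8.66 TPM in the EtOH libraries. The groups were apart, with OHT above, and the lowest OHT value was 2.39 times the highest EtOH value. The group means were 22.0 ± 1.84 TPM with OHT and 8.42 ± 0.350 TPM with EtOH (SD, n = 2 each), a ratio of 2.61. On the log2(TPM + 1) scale, which compresses differences at low levels, the difference was 1.29 (limma SE 0.16), and relative to the EtOH mean OHT replicate 1 was higher by 1.21 and OHT replicate 2 by 1.37. In rank, the mean of Gdf15 lay above 76.8% of the genes in the table with OHT and above 64.7% with EtOH. The gene (ENSMUSG00000038508.8) lies on GRCm38 chromosome 8, 70629393 to 70632456, minus strand.

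Stc2, which encodes the stanniocalcin known as a target of the unfolded protein response, had the largest ratio among the members that were read in every library at 1 TPM or more. It read 5.20 and 5.88 TPM in the OHT libraries, against 1.35 and 1.44 TPM in the EtOH libraries. The groups did not overlap, and the lowest OHT value was 3.61 times the highest EtOH value. Means were 5.54 ± 0.477 TPM with OHT and 1.40 ± 0.0628 TPM with EtOH (SD, n = 2 each), a ratio of 3.96, and the log2 difference was 1.45 (limma SE 0.17). At this low level the log2 difference depended on the pseudocount: it was 1.91 with 0.1 and 0.72 with 5 in place of 1. Its mean lay above 59.5% of the genes in the table with OHT and above 48.7% with EtOH. Stc2 (ENSMUSG00000020303.3) lies on chromosome 11, 31357307 to 31370074, minus strand.

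Fgf21, the endocrine fibroblast growth factor, was barely read. It was listed at 0.114 and 0.209 TPM in the OHT libraries, against 0 in both EtOH libraries. Both OHT values were above the EtOH values, and at levels this low with unknown depth no ratio was formed. Stc1, the other stanniocalcin, was listed at 0 and 0.0453 TPM in the OHT libraries, against 0.0444 and 0.0169 TPM in the EtOH libraries. The Stc1 libraries overlapped and no direction can be read from them. Neither gene reached the mean of 1 TPM that was asked of genes entering the fit, so 3 of the 5 members passed that filter. Fgf21 (ENSMUSG00000030827.6) lies on chromosome 7, 45613886 to 45615490, minus strand, and Stc1 (ENSMUSG00000014813.10) on chromosome 14, 69029238 to 69041804, plus strand.

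Angptl4, which encodes the lipoprotein lipase inhibitor, went the other way. It read 15.1 and 14.6 TPM in the OHT libraries, against 19.4 and 17.8 TPM in the EtOH libraries. The groups were again apart, with OHT below, but the gap was small: the highest OHT value was 0.851 of the lowest EtOH value. Means were 14.9 ± 0.348 TPM with OHT and 18.6 ± 1.19 TPM with EtOH (SD, n = 2 each), a ratio of 0.799, and the log2 difference was -0.30 (limma SE 0.15). The gene (ENSMUSG00000002289.17) lies on chromosome 17, 33773750 to 33781830, minus strand.

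**Figure D1:**
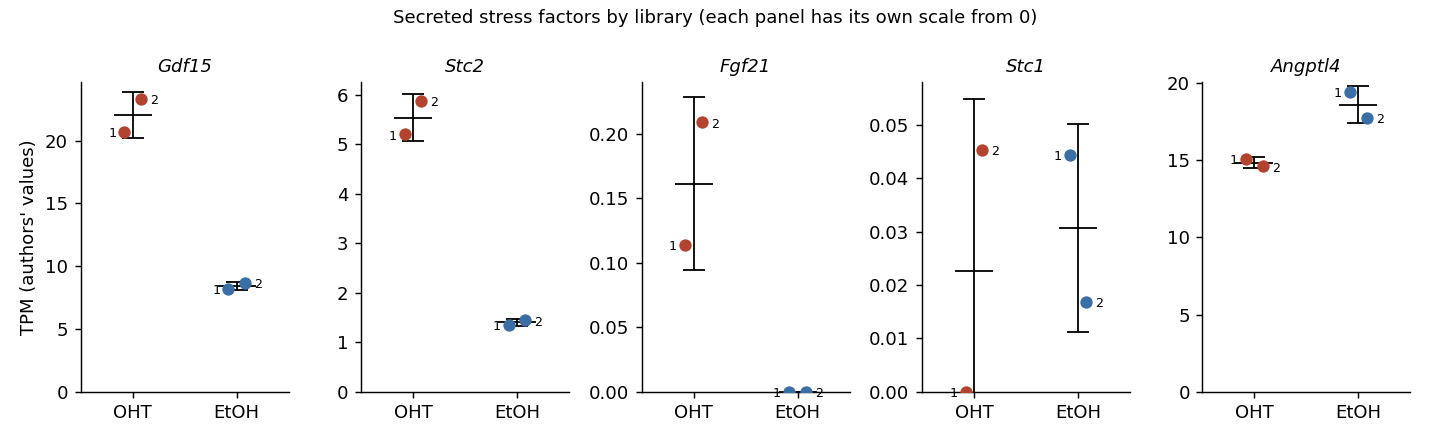
TPM of each secreted stress factor by library, with the OHT group left of the EtOH group in each panel; points are libraries numbered by replicate, the wide bar is the mean and the error bar is 1 SD (n = 2 each; the lower end for Stc1 is cut at 0). Gdf15 sits at 20.7 and 23.3 TPM with OHT against 8.17 and 8.66 TPM with EtOH, Angptl4 is lower with OHT, and Fgf21 and Stc1 stay near 0.

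The order of the members differed between the groups. With OHT the mean level ran from Gdf15 (22.0 TPM) through Angptl4 (14.9 TPM), Stc2 (5.54 TPM) and Fgf21 (0.161 TPM) to Stc1 (0.0227 TPM). With EtOH it ran from Angptl4 (18.6 TPM) through Gdf15 (8.42 TPM), Stc2 (1.40 TPM) and Stc1 (0.0306 TPM) to Fgf21, listed at 0. Within each group the libraries of neighbouring genes in the order did not overlap, although the difference between Fgf21 and Stc1 is one of traces. Gdf15 and Angptl4 exchanged places, as did Fgf21 and Stc1. OHT and EtOH values were free of overlap in 4 of the 5 members, among them the 3 that passed the filter, and 42.4% of the 12029 genes tested did the same (23.1% with OHT above and 19.4% with OHT below). Among all genes tested, 0.333% had a log2 difference above 1, as Gdf15 and Stc2 did. Nothing is read from these shares, since the contrast was in view when the genes were chosen.

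No member shares most of its sequence with another gene: a search of all annotated transcripts found no other gene with 95% identity over at least 50% of any transcript of the 5. Differences between replicates of a group followed transcript length in part. Taken over 12016 genes (genes are no independent replicates), the log2 difference of OHT replicate 2 minus OHT replicate 1 correlated with log2 transcript length (Pearson r = 0.53), as did that of EtOH replicate 2 minus EtOH replicate 1 (r = 0.27). The longest transcripts of the members span 1545 bases for Gdf15, 3982 for Stc2, 3308 for Angptl4, 951 for Fgf21 and 4197 for Stc1. Once the dependence on length and GC content was taken out of each library, the log2 difference was 1.18 for Gdf15 and 1.41 for Stc2.

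The receptors for these proteins were mostly low, and none passed the test. Gfral, which encodes the GDF15 receptor, was listed at 0 in both OHT libraries, against 0.0407 and 0 TPM in the EtOH libraries. Its co-receptor gene Ret read 1.10 and 1.47 TPM in the OHT libraries, against 1.18 and 1.45 TPM in the EtOH libraries, which overlap (log2 difference -0.02, SE 0.18, limma adjusted p = 0.976). Klb, which encodes the beta-Klotho that FGF21 requires, was traced at 0.210 and 0.358 TPM with OHT against 0.0662 and 0.184 TPM with EtOH, and its relative Kl at 0.0193 and 0.0351 against 0.0122 and 0.0137 TPM. Fgfr1, the main FGF21 receptor beside beta-Klotho, was abundant at 52.8 and 68.8 TPM with OHT against 52.0 and 51.8 TPM with EtOH (adjusted p = 0.692 from limma). Of the other FGF receptor genes, Fgfr2 read 4.76 and 6.51 TPM with OHT against 9.43 and 9.04 TPM with EtOH (log2 difference -0.64, SE 0.20, limma adjusted p = 0.369). Fgfr4 read 1.53 and 1.18 TPM with OHT against 0.786 and 0.531 TPM with EtOH (0.51, SE 0.18, adjusted p = 0.423 from limma), and Fgfr3 read 0.557 and 0.885 against 0.709 and 0.724 TPM. Of the 8 genes 4 were tested and none passed an adjusted p of 0.05, which 0.0416% of all tested genes did (5 of 12029). Without OHT replicate 1, 1 of the 4 passed as higher and 1 as lower, where 18.5% of all genes tested passed as higher and 6.11% as lower. Without OHT replicate 2, 1 of the 4 passed as lower, where the shares over all genes were 6.05% higher and 14.5% lower.

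The proteases and partners of the secreted factors were present in part. Furin, a convertase that cuts the GDF15 and ANGPTL4 precursors, read 11.7 and 14.9 TPM with OHT against 9.83 and 10.4 TPM with EtOH (log2 difference 0.35, SE 0.18, limma adjusted p = 0.569), and the related Pcsk6 read 31.3 and 41.4 against 30.9 and 32.4 TPM (adjusted p = 0.774 from limma). Lpl, the lipase that ANGPTL4 inhibits, read 5.63 and 7.22 TPM with OHT against 8.09 and 8.67 TPM with EtOH (-0.34, SE 0.19, limma adjusted p = 0.603). Sdc4, which encodes a heparan sulfate proteoglycan of the cell surface, read 31.4 and 35.9 against 28.6 and 30.5 TPM (adjusted p = 0.719). Fap, the protease that inactivates human FGF21, was listed at 0 in all 4 libraries, and Pappa and Pappa2, the targets of the stanniocalcins, stayed under 0.02 TPM in every library; these 3 were named after their values were seen. Of the 16 genes 8 were tested and none passed. Without OHT replicate 1, 2 of the 8 passed as higher (18.5% over all genes), and without OHT replicate 2, 2 passed as lower (14.5% over all genes).

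**Figure D2:**
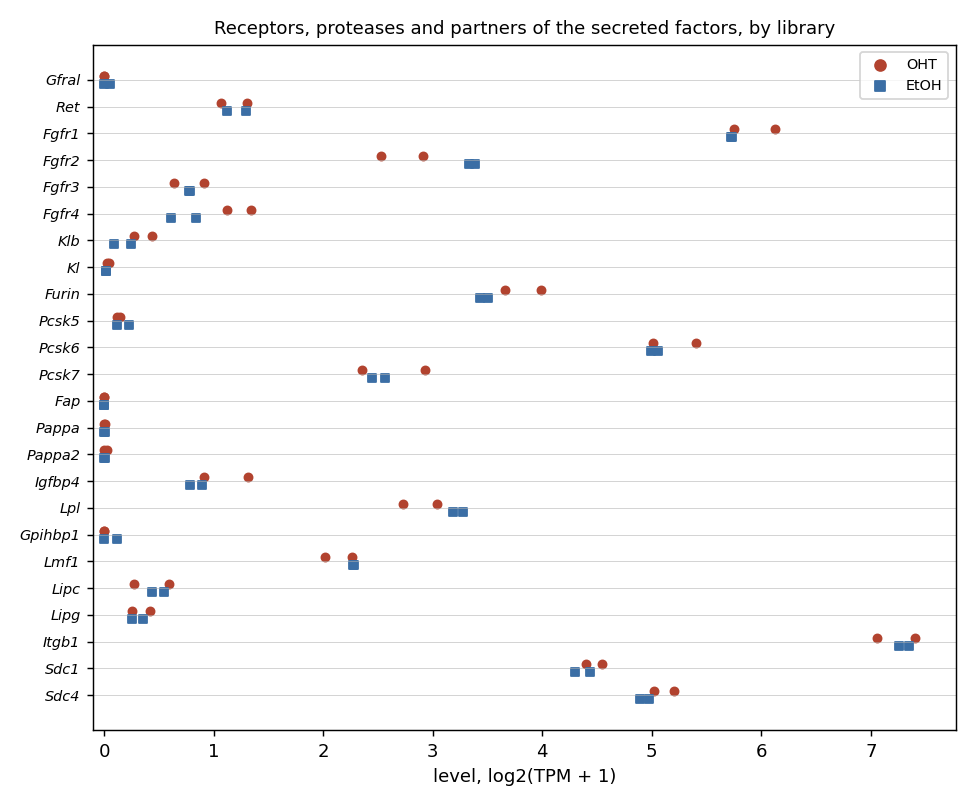
Level of each receptor, protease and partner gene by library, as log2(TPM + 1); circles are the 2 OHT libraries and squares the 2 EtOH libraries, with OHT drawn above EtOH in each row. Fgfr1, Pcsk6, Itgb1, Sdc1 and Sdc4 are well expressed, while Gfral, Fap, Pappa and Pappa2 lie at or near 0.

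Genes of the ATF4 arm were mostly higher with OHT, although none passed the test over all genes. Of 20 genes listed 19 were tested, and the OHT values exceeded the EtOH values without overlap in 14 (73.7%) and were under them in 0, beside 23.1% above and 19.4% below among all genes tested. Their median log2 difference was 0.56, beside 0.02 over all genes tested, and 13 genes, each of them higher, reached an unadjusted limma p under 0.05, which 6.02% of all genes tested did as higher and 4.46% as lower. All gene lists were chosen with earlier results of these data known. The shares here and for the other lists are therefore descriptions and give no independent support. Nupr1, a stress-induced chromatin protein gene, read 56.5 and 59.0 TPM with OHT against 22.3 and 20.1 TPM with EtOH (1.40, SE 0.13, limma adjusted p = 0.0615). Chac1, which encodes a glutathione-degrading enzyme, read 24.3 and 28.6 TPM with OHT against 9.87 and 9.17 TPM with EtOH (1.38, SE 0.16, limma adjusted p = 0.0995). Trib3, a pseudokinase gene, averaged 25.9 ± 2.61 TPM with OHT and 10.9 ± 1.15 TPM with EtOH (SD, n = 2 each; limma adjusted p = 0.110). Ddit4, an inhibitor of mTOR signalling, averaged 92.8 ± 2.28 TPM with OHT and 51.6 ± 1.31 TPM with EtOH (SD, n = 2 each; limma adjusted p = 0.0995). The 4 eIF2 kinase genes that start this response, Eif2ak1 to Eif2ak4, overlapped between the groups, with log2 differences of -0.02, -0.03, 0.05 and 0.10. The activity of these kinases was not measured. Atf4 itself read 257 and 267 TPM with OHT against 192 and 181 TPM with EtOH (0.49, SE 0.09, limma adjusted p = 0.211). Atf4 and the kinase genes were named after their values were seen. After removal of the length and GC trend 7 of the 19 passed, all higher (Asns, Atf3, Atf5, Chac1, Ddit4, Nupr1 and Trib3), where 0.698% of all genes passed as higher. Without OHT replicate 1 the count was 14, all higher (18.5% over all genes), without OHT replicate 2 it was 12, all higher (6.05% over all genes), and of the 19 Nupr1 alone passed without EtOH replicate 1 (adjusted p = 0.00282) or EtOH replicate 2 (0.0147), where 0.125% and 0.0998% of all genes passed as higher.

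The p53 arm, the route to Gdf15 after DNA damage, was less uniform. All 15 genes listed were tested. OHT lay above EtOH without overlap in 6 (40.0%, beside 23.1% over all genes) and below in 0 (beside 19.4%), and the median log2 difference was 0.20. Pmaip1, a pro-apoptotic gene, averaged 76.7 ± 8.72 TPM with OHT and 38.6 ± 1.84 TPM with EtOH (SD, n = 2 each), a log2 difference of 0.97 (SE 0.13, limma adjusted p = 0.107). Cdkn1a, the cell cycle inhibitor p21, read 77.7 and 77.9 TPM with OHT against 46.4 and 48.7 TPM with EtOH (0.70, SE 0.11, limma adjusted p = 0.140). Perp (0.46, SE 0.10) and Bbc3 (0.41, SE 0.12) had adjusted p-values of 0.267 and 0.358. Trp53 itself, named after its values were seen, read 344 and 413 TPM with OHT against 394 and 384 TPM with EtOH, which overlap. None of the 15 passed. Cdkn1a and Pmaip1 passed as higher with the length and GC trend removed, where 0.698% of all genes did. Without OHT replicate 1 the list's median was 0.374. Without OHT replicate 2 it was -0.02.

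The hypoxia arm was mixed. Of 18 genes listed 16 were tested, with OHT above EtOH without overlap in 8 (beside 23.1% over all genes) and below in 1 (6.25%, beside 19.4%), and a median log2 difference of 0.18. Vegfa, the vascular growth factor gene, read 18.1 and 22.2 TPM with OHT against 6.71 and 6.97 TPM with EtOH (1.42, SE 0.18, limma adjusted p = 0.0995). Bnip3, a mitophagy receptor gene, averaged 50.3 ± 3.28 TPM with OHT and 25.6 ± 1.77 TPM with EtOH (SD, n = 2 each; limma adjusted p = 0.110). Egln3, a prolyl hydroxylase gene, and Slc2a1, a glucose transporter gene, differed by 0.71 (SE 0.17, adjusted p = 0.270) and 0.33 (SE 0.09, adjusted p = 0.308). Hif1a and Epas1, the oxygen-sensitive factors, overlapped between the groups, and Adm and Car9 were under 1 TPM; these 4 were named after their values were seen. None of the 16 passed. Bnip3 and Vegfa passed as higher with the length and GC trend removed, where 0.698% of all genes did. Without OHT replicate 1 the list's median was 0.362. Without OHT replicate 2 it was 0.156.

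The PPAR arm, which also drives Angptl4, had 16 genes listed and 9 tested, with OHT above EtOH without overlap in 4 (44.4%, beside 23.1% over all genes) and below in 2 (22.2%, beside 19.4%), and a median log2 difference of 0.18. Plin2, a lipid droplet coat gene, averaged 22.2 ± 3.62 TPM with OHT and 16.2 ± 1.03 TPM with EtOH (SD, n = 2 each), a log2 difference of 0.42 (SE 0.17, limma adjusted p = 0.474). The receptor gene Ppard and its partner Rxra differed by 0.42 (SE 0.22) and 0.44 (SE 0.19), and the carnitine carrier gene Slc25a20 by -0.22 (SE 0.12), with adjusted p-values of 0.574, 0.495 and 0.594. None passed, while 5 passed as higher without OHT replicate 1 (18.5% over all genes) and 1 as lower without OHT replicate 2 (14.5% over all genes). Angptl4 was lower, as were the 2 genes below their EtOH range, Slc25a20 and Acadvl, while the 4 above it were Plin2, Cpt1a, Ppard and Rxra. Cpt1a and Acadvl were named after their values were seen.

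Other secreted proteins linked to stress were compared as a group of 22, of which 13 were tested. OHT lay above EtOH without overlap in 8 (61.5%, beside 23.1% over all genes) and below in 1 (7.69%, beside 19.4%), with a median log2 difference of 0.12. Adm2, a peptide hormone gene, read 4.75 and 3.97 TPM with OHT against 2.06 and 1.38 TPM with EtOH (0.99, SE 0.21, limma adjusted p = 0.252). Grn, the progranulin gene, averaged 52.0 ± 1.72 TPM with OHT and 38.3 ± 2.21 TPM with EtOH (SD, n = 2 each; limma adjusted p = 0.328). Metrn, which encodes the secreted protein meteorin, differed by 0.40 (SE 0.14, limma adjusted p = 0.414). The endoplasmic reticulum stress factors Manf, Creld2 and Sdf2l1, named after their values were seen, had log2 differences of -0.19, -0.15 and -0.04. They were the only tested genes of this list with a negative difference. Manf was the gene below EtOH without overlap, while Creld2 and Sdf2l1 overlapped. None of the 13 passed, with 3 higher calls and 1 lower call without OHT replicate 1 (18.5% and 6.11% over all genes) and 4 higher calls without OHT replicate 2 (6.05% over all genes).

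**Figure D3:**
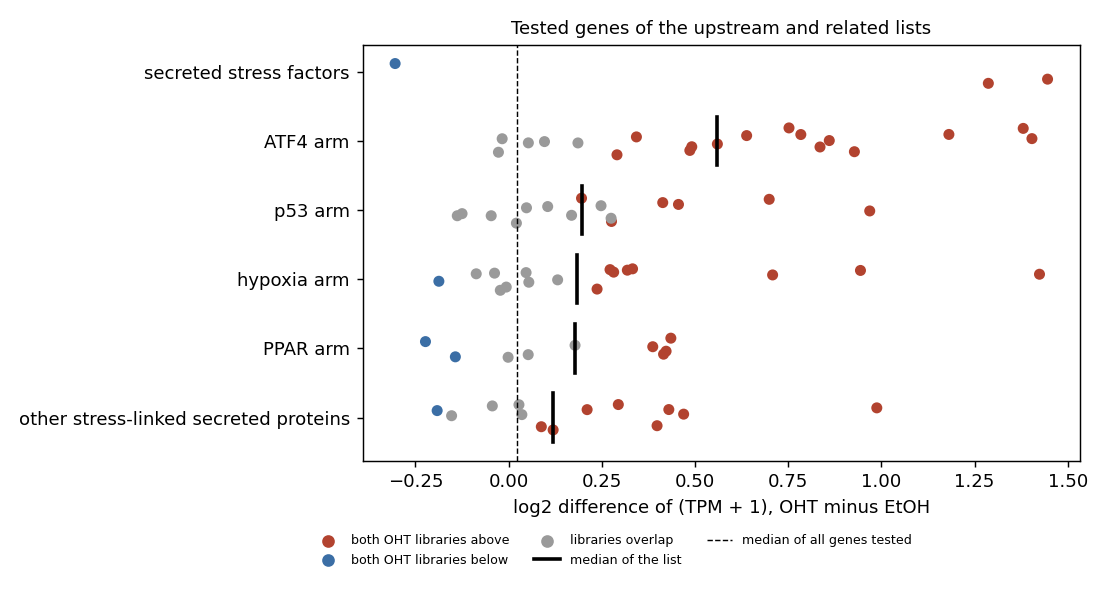
Log2 difference of (TPM + 1), OHT minus EtOH, for each tested gene of the secreted stress factors and of 5 related lists; red points have both OHT libraries above both EtOH libraries, blue points both below, grey points overlap, solid bars are medians of the related lists and the dashed line is the median of all genes tested. Gdf15 and Stc2 lie at 1.29 and 1.45 and Angptl4 at -0.30, and among the 5 related lists the ATF4 arm has the highest median, at 0.56.

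The genes whose profile over the 4 libraries was most like that of a member were found by the Euclidean distance between profiles of log2(TPM + 1), each relative to its own EtOH mean, among 11634 named genes. For Gdf15 they were Hspb2 (distance 0.0549), Serpinf1 (0.124) and Gng13 (0.132). For Stc2 they were Vegfa (0.101), Serpinf1 (0.105) and Chac1 (0.151). Vegfa and Chac1 are also named in the lists above. The distance rests largely on the same difference between OHT and EtOH, so their place here is no separate evidence. Hspb2 read 4.84 and 5.55 TPM with OHT against 1.53 and 1.68 TPM with EtOH, and Serpinf1 read 4.99 and 5.78 against 1.39 and 1.53 TPM. For Angptl4 they were Adat3 (0.0268), Ifitm1 (0.0277) and Atp6v0a4 (0.0283). These are descriptions over 4 libraries, and many genes with small differences lie about as near to Angptl4.

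For the 3 members past the filter, the log2 difference kept its sign under each scaling and without the length and GC trend. Their OHT and EtOH values did not overlap, so no pseudocount and no omission of a single library could change the sign. The contrast was in view when these members were chosen, so this is a description only. Leaving out each library in turn gave 1.21 to 1.37 for Gdf15, 1.37 to 1.52 for Stc2 and -0.37 to -0.24 for Angptl4.

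**Figure D4:**
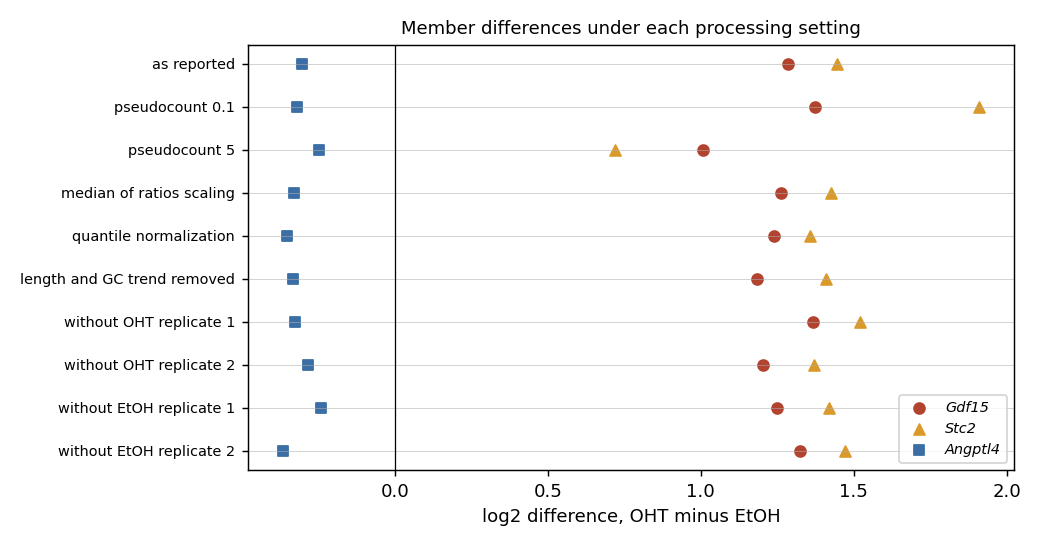
Log2 difference of Gdf15, Stc2 and Angptl4, OHT minus EtOH, under the reported setting and each alternative; each point is a member under a setting and the vertical line marks 0. Gdf15 and Stc2 stay above 0 and Angptl4 below 0, and Stc2 spans 0.72 to 1.91 with the pseudocount. With the groups apart, no pseudocount or left-out library could change a sign.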

How the data were processed

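The deposited table holds TPM per gene for each library, each summing to 1000000; per the submitters' processing notes, the authors used Trim Galore, Salmon and GRCm38 (mm10). Versions, annotation and bias correction: not given in the sources used here. A further 2 value columns have no match among the samples and were left aside. The members and gene lists were chosen with earlier results of these data known. Here, log2(TPM + 1) was compared for the 12029 genes whose mean reached 1 TPM with limma 3.58.1 in R 4.3.3 (two-sided; mean-variance trend; 2 residual and 4.01 prior degrees of freedom), adjusted by Benjamini-Hochberg over all genes tested, threshold 0.05. The fit was checked on simulated data. An exact permutation test of 2 against 2 cannot go below 0.333, so none was run. Besides the members and Cbx2, the genes named are the 8 receptors and the 4 tested genes of each list with the smallest p, plus the 3 nearest profiles per member; marker lists are given mainly as sums, genes named outside this rule are said in the text to be so or are those called under an alternative, and 1 gene the rule names is not reported here. For a symbol with several rows, the row of highest mean was used. Coordinates and transcripts are from GENCODE M21 (GRCm38), promoters from RefSeq (GRCm38.p6), where 3 of 5 members matched; the CCAAT and TATA motifs were added after the windows were seen. Copies were sought with blastn 2.17.0. Alternatives were other pseudocounts, filters, scalings, removal of length and GC trends (loess), no variance trend, a block for replicate number, and omission of each library. Depth per sample is unknown, so no counting interval was formed.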

Additional observations from a re-analysis of the deposited data

How the results depend on the processing

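For Gdf15 the log2 difference of 1.29 was 1.01 with a pseudocount of 5 and 1.18 after removal of the length and GC trend. For Stc2 the difference of 1.45 was 1.91 with a pseudocount of 0.1, 0.72 with 5 and 1.36 after quantile normalization. Other settings moved these, and every setting moved Angptl4, by less than the SD between replicates. The count of genes past the threshold, 5 as reported (1 higher, 4 lower), was 3 with median of ratios scaling, quantile normalization or limma without a trend, 144 with the length and GC trend removed (84 higher, 60 lower) and 0 when every gene was tested (limma; 2228 genes at an unadjusted p under 0.05). Leaving out each library gave 34 to 2957 (2957 and 2478 without OHT replicate 1 and 2, 46 and 34 without EtOH replicate 1 and 2), where a lone library is assumed to vary like the other group. The all-gene median was then 0.14 and -0.09 without OHT replicate 1 and 2. With a replicate block the count was 474 of the 12029 genes tested (261 higher, 213 lower). Among them were 11 of the 19 ATF4 arm genes, 3 of the 15 p53 arm genes and 3 of the 16 hypoxia arm genes. A further 2 of the 8 embryonic stem cell markers and 1 of the 13 other secreted proteins passed, and all these calls were higher. With 2 pairs the labels do not show that the numbers pair the samples (correlation of deviations 0.29). List medians changed sign with a minimum of 5 TPM (receptors -0.21, GDF ligands 0.0516), with every gene tested (primitive endoderm -0.0044) and without OHT replicate 2 (receptors -0.0581, proteases and partners -0.0859, p53 arm -0.0205, GDF ligands 0.0687, trophoblast -0.0140), where leaving out OHT replicate 1 gave 0.247, 0.224, 0.374, -0.150 and 0.235. Over the left-out libraries the lowest GDF median was -0.213. The cause of these changes was not tested.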

Other observations

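The relatives of the secreted stress factors gave other patterns. Gdf3, a ligand of early embryonic cells, was the most abundant of 13 GDF, myostatin and inhibin ligand genes, at 170 and 179 TPM with OHT against 203 and 196 TPM with EtOH (log2 difference -0.19, SE 0.09, limma adjusted p = 0.549). Inhbb, which encodes an activin subunit, read 18.7 and 22.4 TPM with OHT against 15.4 and 17.7 TPM with EtOH (adjusted p = 0.618 from limma), and Gdf1 read 3.13 and 1.20 against 2.60 and 3.31 TPM, which overlap. Of these 13 genes 3 were tested and none passed.

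Of 21 other FGF family genes 9 were tested, none passed, and their median log2 difference was 0.09. Fgf3 read 3.98 and 4.18 TPM with OHT against 2.68 and 2.54 TPM with EtOH (0.49, SE 0.17, limma adjusted p = 0.413), and Fgf1 averaged 2.50 ± 0.438 TPM with OHT and 1.70 ± 0.177 TPM with EtOH (SD, n = 2 each; limma adjusted p = 0.551). Fgf18 read 1.40 and 2.07 TPM with OHT against 2.21 and 2.24 TPM with EtOH. Fgf15, the mouse endocrine relative of Fgf21, was well above it, at 14.3 and 16.8 TPM with OHT against 13.2 and 13.7 TPM with EtOH (adjusted p = 0.753 from limma). Of 9 angiopoietin and angiopoietin-like genes only Angptl6 reached the filter, at 2.58 and 3.03 TPM with OHT against 3.82 and 3.26 TPM with EtOH (-0.25, SE 0.18, limma adjusted p = 0.693).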
